A study of Homo sapiens with 66 samples.

Results

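HIF-1α and HIF-2α were compared as chromatin-bound factors in HKC-8 cells, a human kidney proximal tubule line, kept in 0.5% oxygen for 16 h. The 4 chromatin immunoprecipitation (ChIP-seq) libraries compared were HIF-1α replicates 1 and 2 and HIF-2α replicates 1 and 2, out of 66 samples in the whole series. Peaks of the 4 lists that overlapped by at least 1 bp were merged into sites, which gave 3670 sites. A site with a peak in both replicates of HIF-1α and in neither of HIF-2α was called HIF-1-only (134 sites, 3.65% of all sites), the reverse HIF-2-only (207 sites, 5.64%), and a site with a peak in all 4 lists shared (81 sites, 2.21%). These 422 sites are described here with their genes, their distance to transcription start sites (TSS), their motifs and their calls in libraries that took no part in defining them.

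The libraries set beside them came from unedited HKC-8 cells in 0.5% oxygen for 6 h or 48 h and in 3% oxygen for 6 h, from the same condition as above (0.5% oxygen, 16 h) repeated as wild type (WT) in a knockout experiment, from HKC-8 cells in which CRISPR-Cas9 had disrupted HIF-1α or HIF-2α (HIF-1α KO and HIF-2α KO, single clones, 0.5% oxygen, 16 h), from RCC4 renal carcinoma cells in normoxia, and from HepG2 liver cancer cells in 0.5% oxygen for 16 h. Each had 2 libraries per antibody. HIF-1α was precipitated with the rabbit antibody PM14 and HIF-2α with PM9 throughout, so isoform and antibody cannot be told apart. HIF-1β libraries of the same 16 h experiment were a further readout. In HepG2 the replicate 1 libraries stood against their labels: HIF-1-only sites had a peak in 14.2% of cases in the library labelled HIF-1α and in 75.4% in that labelled HIF-2α. In replicate 2 these shares were 75.4% and 22.4%, the direction seen in the other lines. Results that include HepG2 are therefore given with and without it.

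HIF is a dimer of an oxygen-regulated α-subunit and the constitutive HIF-1β. In oxygen, prolyl hydroxylases mark HIF-α for destruction through the VHL ubiquitin ligase, and in hypoxia the stabilised subunit pairs with HIF-1β and binds the hypoxia response element (HRE). HIF-1 is best known for genes of glycolysis, while HIF-2 has been tied in kidney cells to growth and matrix genes. Both dimers recognise the same HRE core, ACGTG or GCGTG. AP-1 (JUN and FOS dimers) binds TGACTCA or TGAGTCA, and TEAD factors, which act with the cofactors YAP and TAZ, bind GGAATG.

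The sequences below, all read from GRCh37 on the forward strand, show a stretch around an HRE core at the best-ranked sites of each class that hold one and, where one lay within 100 bp of the site centre, the AP-1 motif beside them. Capitals mark HRE cores (ACGTG and GCGTG, or CACGT and CACGC when they lie on the reverse strand) and AP-1 motifs (TGACTCA or TGAGTCA). Those that reach a UTR are cut to 29 bases.

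The 4 HIF-1-only sites lay within 1 kb of a TSS and had no AP-1 motif within 100 bp of the centre. They are FAM174B at chr15:93352397-93352451, NARF at chr17:80416375-80416403, P4HA2 at chr5:131563605-131563659 and PFKFB4 at chr3:48594691-48594745.
FAM174B: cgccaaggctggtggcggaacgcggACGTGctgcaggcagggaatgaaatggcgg
NARF: ccccggcgccgtACGTGgagtgagcctgc
P4HA2: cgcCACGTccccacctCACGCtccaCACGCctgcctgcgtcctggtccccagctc
PFKFB4: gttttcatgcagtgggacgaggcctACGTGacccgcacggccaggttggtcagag

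The 4 HIF-2-only sites lay over 10 kb from a TSS, and 3 of them held an AP-1 motif as well as an HRE core. They are named for the nearest gene, PEX26 at chr22:18544036-18544231, SEMA4F at chr2:74967998-74968082, CCN1 at chr1:86073066-86073203 and UACA at chr15:70767230-70767284.
PEX26: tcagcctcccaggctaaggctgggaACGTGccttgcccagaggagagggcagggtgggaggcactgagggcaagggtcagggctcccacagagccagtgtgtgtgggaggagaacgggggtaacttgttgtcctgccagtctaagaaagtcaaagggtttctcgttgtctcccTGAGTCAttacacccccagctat
SEMA4F: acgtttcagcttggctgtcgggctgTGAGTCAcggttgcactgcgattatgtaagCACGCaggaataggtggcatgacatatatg
CCN1: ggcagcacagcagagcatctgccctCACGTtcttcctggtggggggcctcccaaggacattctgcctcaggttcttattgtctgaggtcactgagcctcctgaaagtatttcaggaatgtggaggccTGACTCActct
UACA: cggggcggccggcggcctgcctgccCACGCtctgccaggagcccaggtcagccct

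The 4 shared sites included promoters (ENO1 and ALDOA) and distal sites. They are SNAPC1 at chr14:62217989-62218043, ENO1 at chr1:8938895-8938923, ARRDC3 at chr5:90576418-90576490 and ALDOA at chr16:30076620-30076674. In the ARRDC3 site, 2 AP-1 motifs and 2 HRE cores lie together, and 1 AP-1 motif shares bases with a reverse-strand core.
SNAPC1: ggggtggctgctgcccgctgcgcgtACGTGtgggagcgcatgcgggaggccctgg
ENO1: acggctgcagtaGCGTGgaaaggggggtg
ARRDC3: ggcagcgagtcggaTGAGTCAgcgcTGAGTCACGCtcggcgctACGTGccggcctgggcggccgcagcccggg
ALDOA: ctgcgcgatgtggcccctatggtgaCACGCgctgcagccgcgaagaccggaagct

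The 4 lists were of similar length but their replicates overlapped only in part. HIF-1α had 1313 and 951 peaks and HIF-2α 1198 and 1051. Of the HIF-1α peaks, 20% in replicate 1 and 27.8% in replicate 2 overlapped a peak of the other replicate, and of the HIF-2α peaks 29.1% and 32.0%. The score of a peak is the caller's significance, and each list began at a score just above 50. The lists carry no depth, so a site missing from one may lie just under that limit. Most sites were called in 1 library alone: 1641 in 1 HIF-1α list and 1468 in 1 HIF-2α list. A further 47 sites were in both HIF-1α lists and 1 HIF-2α list, 48 in both HIF-2α lists and 1 HIF-1α list, and 44 in 1 list of each.

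The sites called in 1 list alone differed from the replicated classes. An HRE core lay within 100 bp of the centre in 38.8% of sites in 1 HIF-1α list and 37.5% of those in 1 HIF-2α list, and 12.1% and 17.7% of them had a HIF-1β peak at 16 h in either replicate. Among the 47 sites in both HIF-1α lists and 1 HIF-2α list these shares were 83.0% and 100%, and among the 48 in the reverse pattern 77.1% and 100%. Strong sites fell just outside the classes. ANKRD37, a hypoxia-induced gene, scored 1719 and 1149 in the HIF-1α lists and had 1 HIF-2α peak with a score of 126, and BNIP3, a mitophagy receptor, scored 1005 and 483 with 1 HIF-2α peak of 267. The highest score among sites called in 1 HIF-1α list alone was 388 at CENPT, and in 1 HIF-2α list alone 259 at MOAP1. Just inside, the lowest scores were 50.5 at MTHFD1L for HIF-1-only and 50.1 at CRISPLD2 for HIF-2-only.

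At the top of the HIF-1-only class, the 10 best-ranked sites lay within 1 kb of a TSS except those at VGLL4 (1.153 kb) and ASAP2 (35.4 kb). The site at FAM174B (chr15:93352126-93352815, intron) scored 1566 and 1239 in HIF-1α replicates 1 and 2, where it ranked 4 and 2. NARF (chr17:80415789-80416898, UTR) scored 1401 and 1178. It ranked 5 and 3, and neither site had a HIF-2α peak. ZNF292 (chr6:87864842-87865989, coding exon) scored 682 and 503 and VGLL4, a cofactor that binds TEAD proteins, 449 and 491 (chr3:11683856-11684615, intron). P4HA2, a subunit of the collagen prolyl 4-hydroxylase, scored 543 and 261 (chr5:131563142-131564129). PFKFB4, which sets the level of the glycolytic activator fructose-2,6-bisphosphate, scored 362 and 271 (chr3:48594450-48595013), and PPP1R3E, a glycogen-targeting subunit of protein phosphatase 1, 339 and 176 (chr14:23770400-23771128). RLF, MGAT5B and ASAP2 had scores of 237 to 501. In the plot of scores these HIF-1-only sites reach well above the HIF-2-only ones, but scores of different libraries are not on a common scale.

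**Figure D1:**
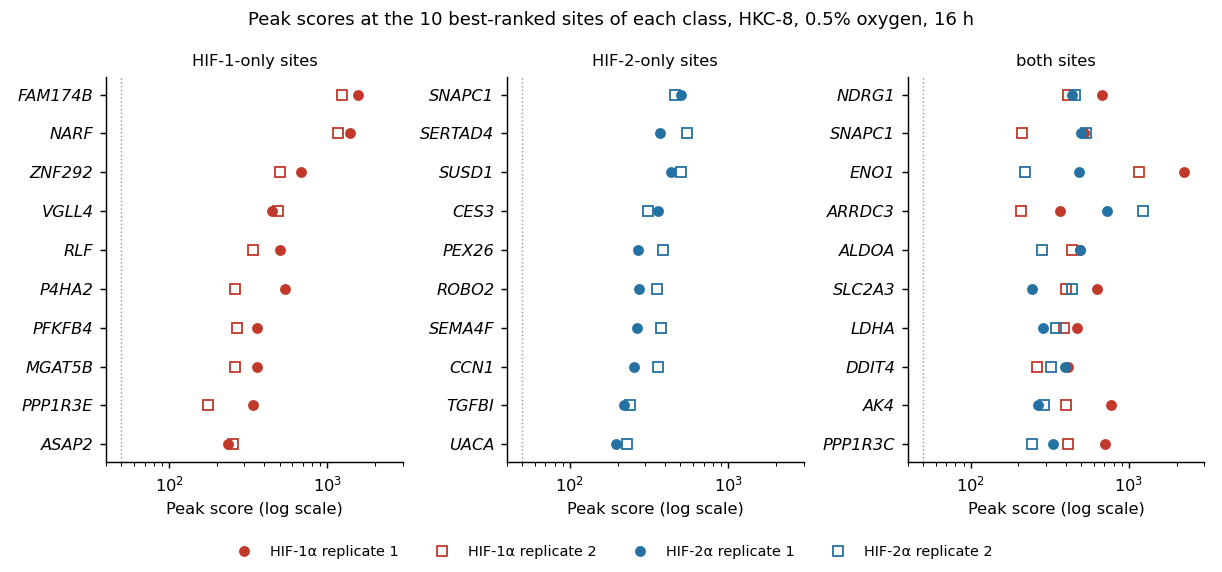
Peak scores (log axis) in each library at the 10 sites of each class with the best mean rank, named for the nearest protein-coding gene. Filled circles are replicate 1, open squares replicate 2, red HIF-1α and blue HIF-2α; the dotted line is a score of 50, and a library without a symbol had no peak. FAM174B and NARF lie above 1000 in both HIF-1α libraries, and at ARRDC3 both HIF-2α symbols lie above both HIF-1α symbols.

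The HIF-2-only sites were mostly distal, and 1 of the 10 best-ranked lay within 1 kb of a TSS. The first lay 6.945 kb upstream of SNAPC1, which encodes a subunit of the small nuclear RNA activating complex (chr14:62221743-62222642), and scored 504 and 464 in HIF-2α replicates 1 and 2. A shared site lay 11.183 kb upstream of the same gene (chr14:62217599-62218310), with scores of 522 and 212 in HIF-1α and 495 and 533 in HIF-2α. Next in rank were a site 33.1 kb from SERTAD4 (chr1:210438772-210439707, 370 and 549), an intron of SUSD1 (chr9:114803456-114804800, 433 and 504) and an intron of CES3, a carboxylesterase (chr16:67004579-67005568, 362 and 314). The others by rank were at PEX26, which serves peroxisome assembly, ROBO2, the receptor for Slit guidance proteins, SEMA4F, CCN1 and TGFBI, both secreted matrix proteins, and UACA, with scores of 196 to 386. The TGFBI site (chr5:135393744-135394820), 0.256 kb upstream of the TSS, was the promoter-proximal one.

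The shared class held many well-known hypoxia genes. Its best-ranked site, 73.6 kb upstream of NDRG1, scored 671 and 409 in HIF-1α and 435 and 459 in HIF-2α and had a peak in all 50 libraries. The site 102.6 kb from ARRDC3 (chr5:90575928-90577066), in an exon of the non-coding gene LUCAT1, also had a peak in all 50 and ranked 1 in both HIF-2α lists (721 and 1219) and 40 and 47 in the HIF-1α lists (367 and 209). The promoter of ENO1, which encodes the glycolytic enzyme enolase, showed the opposite (chr1:8937893-8939835): it ranked 2 and 4 in HIF-1α (2237 and 1162) and 7 and 76 in HIF-2α (482 and 220). ALDOA and LDHA (glycolysis), SLC2A3 (glucose transport), AK4 (a mitochondrial adenylate kinase), PPP1R3C (glycogen) and DDIT4, an inhibitor of mTORC1, completed the 10, with scores of 242 to 772.

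The 3 classes lay at different distances from genes. The median distance from the site centre to the nearest protein-coding TSS was 0.168 kb for HIF-1-only (quartiles 0.069 and 2.63 kb), 24.98 kb for HIF-2-only (8.74 and 65.1 kb) and 5.17 kb for shared sites (0.234 and 24.6 kb). Within 1 kb of a TSS were 95 of 134 HIF-1-only sites (70.9%, 95% CI 62.4 to 78.4), 12 of 207 HIF-2-only sites (5.80%, 3.03 to 9.91) and 32 of 81 shared sites (39.5%, 28.8 to 51.0). The intervals do not overlap. They are exact binomial (Clopper-Pearson) intervals that cover counting error over sites, as do all intervals below, and sites are not replicates. Over 10 kb away were 28 HIF-1-only sites (19 up to 100 kb and 9 beyond) against 148 HIF-2-only sites (112 and 36). HIF-1-only centres fell in a UTR in 20.1%, in a coding exon in 19.4% and in an intron of a protein-coding gene in 20.1% of cases. For HIF-2-only sites these shares were 1.449%, 3.38% and 45.4%, with a further 16.4% in introns of non-coding genes.

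**Figure D2:**
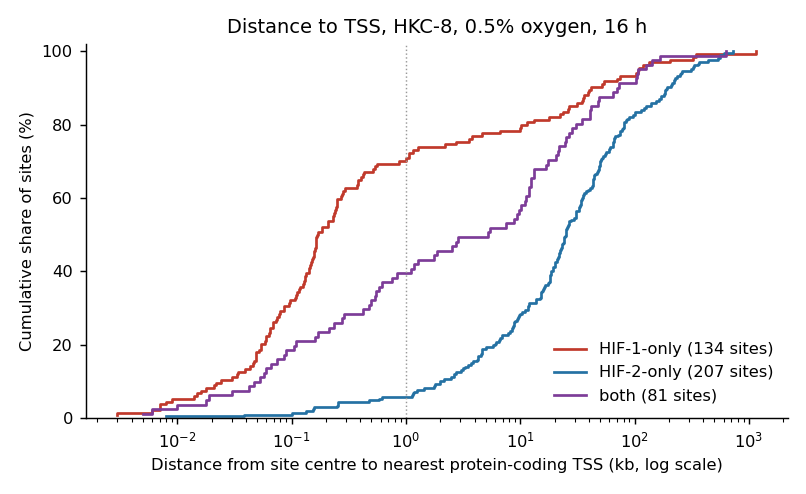
Cumulative share of sites (%) by distance from the site centre to the nearest protein-coding TSS (kb, log axis), with 1 line per class and a dotted line at 1 kb. At 1 kb the lines stand at 70.9% for HIF-1-only, 39.5% for shared and 5.80% for HIF-2-only sites.

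Taken over all peaks of each library rather than replicated sites, the direction was the same and the gap smaller. Peaks within 1 kb of a TSS made up 34.5% and 22.8% in the HIF-1α libraries and 11.1% and 9.43% in the HIF-2α libraries, a difference of 18.4 percentage points with no overlap between the isoforms (exact permutation p 0.33, two-sided, adjusted p 0.407). With 2 libraries against 2, 0.33 is the smallest p possible.

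Base composition differed as well. In the 201 bp around the centre, median GC content was 68.4% for HIF-1-only, 53.7% for HIF-2-only and 66.2% for shared sites, and the observed to expected ratio of CpG 0.890, 0.297 and 0.681. Promoters are GC-rich, and the part of TSS distance in these values was not tested.

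HRE cores were more frequent around the centre than 2 kb away in all 3 classes, and HIF-2-only sites had the lowest share. A core lay within 100 bp of the centre in 82.8% of HIF-1-only (95% CI 75.4 to 88.8), 57.5% of HIF-2-only (50.4 to 64.3) and 79.0% of shared sites (68.5 to 87.3). Windows of the same length 2 kb to either side held one in 28.4%, 21.0% and 29.6%, and windows centred on all 78564 annotated protein-coding TSS in 41.0%. At least 2 cores were found in 63 HIF-1-only sites (47.0%), 51 HIF-2-only sites (24.6%) and 38 shared sites (46.9%). The whole merged site held a core in 94.8%, 88.9% and 100%, but HIF-2-only and shared sites were wider (median 883 and 989 bp against 556 bp), so more bases were searched. Width differed between libraries of 1 isoform. The median peak was 336.5 and 257.5 bp wide in HIF-1α replicates 1 and 2, and 191 and 786.5 bp in HIF-2α. The part of peak width in the motif shares was not tested. Among sites more than 1 kb from a TSS, the core was present in 30 of 39 HIF-1-only (76.9%), 112 of 195 HIF-2-only (57.4%) and 40 of 49 shared sites (81.6%).

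The core itself was alike between classes. The core nearest the centre read ACGTG in 69.4% of HIF-1-only (95% CI 59.9 to 77.8), 63.0% of HIF-2-only (53.7 to 71.7) and 68.8% of shared sites (55.9 to 79.8), and the base after it was C in 40.5%, 38.7% and 42.2%. The base before it was T in 28.8%, 36.97% and 29.7%. A G followed the core in 28.8% of HIF-1-only sites (20.6 to 38.2). This share was 11.8% in HIF-2-only (6.58 to 18.95) and 6.25% in shared sites (1.73 to 15.2). Median GC content around the centre was 68.4% in HIF-1-only, 53.7% in HIF-2-only and 66.2% in shared sites. Its part in the base after the core was not tested.

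AP-1 and TEAD motifs were more frequent in HIF-2-only than in HIF-1-only sites. AP-1 motifs were present in 5.22% of HIF-1-only sites (95% CI 2.13 to 10.5), 23.7% of HIF-2-only sites (18.1 to 30.1) and 19.8% of shared sites (11.7 to 30.1), against 4.10%, 4.59% and 4.32% in the windows 2 kb away. TEAD motifs were present in 8.21% (4.17 to 14.2), 36.7% (30.1 to 43.7) and 16.0% (8.83 to 25.9), against 12.7%, 11.4% and 8.02% in those windows and 7.85% of all TSS windows. At least 1 of the motifs was found in 112 HIF-2-only sites (54.1%) and both in 13. The GC box (GGGCGG) had the reverse pattern, in 43.3% of HIF-1-only, 9.18% of HIF-2-only and 42.0% of shared sites, and in 43.5% of all TSS windows. The E-box CACGTG, which contains an HRE core, was in 14.2%, 10.1% and 8.64%, and CCAAT in 14.2%, 16.4% and 16.0%.

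The shares were also taken by distance from a TSS. Among sites over 1 kb from a TSS, AP-1 was present in 7 of 39 HIF-1-only (17.9%, 95% CI 7.54 to 33.5), 45 of 195 HIF-2-only (23.1%, 17.4 to 29.6) and 14 of 49 shared sites (28.6%, 16.6 to 43.3), intervals that overlap widely. TEAD was present there in 15.4% (5.86 to 30.5), 36.4% (29.7 to 43.6) and 20.4% (10.2 to 34.3), where the first and second intervals just overlap. Within 1 kb of a TSS, AP-1 was found in 0 of 95 HIF-1-only sites, 95% CI 0 to 3.81, and in 4 of 12 HIF-2-only sites, and TEAD in 5 of 95 and 5 of 12.

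**Figure D3:**
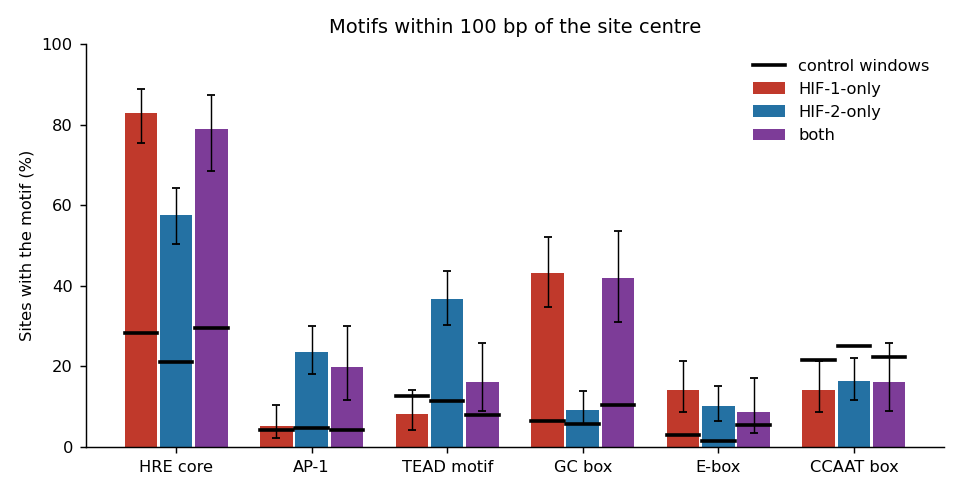
Share of sites (%) of each class with a motif within 100 bp of the site centre; error bars are 95% Clopper-Pearson intervals and black lines the share in windows 2 kb to either side. The blue bars (HIF-2-only) are the lowest for the HRE core (57.5%) and GC box (9.18%) and the highest for the TEAD motif (36.7%).

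The TEAD and GC box motifs were then counted in HKC-8 libraries that did not define the sites, a test added after the values at 16 h had been seen. TEAD motifs were found in 10.1% and 12.1% of all HIF-1α peaks and 21.4% and 26.6% of all HIF-2α peaks at 16 h. In the 16 other HKC-8 libraries with both isoforms (6 h, 48 h, 3% oxygen and WT), the share averaged 13.6% for HIF-1α (11.3% to 18.5%) and 20.8% for HIF-2α (16.0% to 25.1%). It was higher for both HIF-2α libraries than for both HIF-1α libraries in each of the 4 conditions, with a mean difference of 7.22 percentage points (two-sided exact permutation test within condition, p 0.00154, adjusted p 0.00424). This is the smallest p that permuting 2 against 2 libraries within 4 conditions can give. The GC box was 3.79 points more frequent in HIF-1α peaks (13.1% against 9.30%), which did not pass adjustment (exact permutation p 0.0463, adjusted p 0.102). At 16 h, AP-1 was in 6.18% and 6.84% of HIF-1α peaks and 11.7% and 17.8% of HIF-2α peaks, a difference of −8.23 points (exact permutation p 0.33, adjusted p 0.407). The HRE core, in 55.9% and 46.4% of HIF-1α and 47.0% and 52.0% of HIF-2α peaks, differed by 1.64 points, less than the spread between replicates (exact permutation p 1).

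HIF-1β, the partner of both isoforms, had a peak at 16 h in both replicates at all 81 shared sites, at 101 HIF-1-only sites (75.4%, 95% CI 67.2 to 82.4) and at 106 HIF-2-only sites (51.2%, 44.2 to 58.2). By replicate the shares were 82.1% and 82.1% for HIF-1-only and 52.7% and 66.2% for HIF-2-only. No HIF-1β peak was found in either replicate at 15 of the HIF-1-only sites (11.2%) and 67 of the HIF-2-only sites (32.4%).

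The HIF-2-only sites with and without HIF-1β differed in sequence. In the 106 with HIF-1β in both replicates, an HRE core was present in 74.5% (95% CI 65.1 to 82.5), AP-1 in 32.1% (23.3 to 41.8) and TEAD in 25.5% (17.5 to 34.9). In the 67 without HIF-1β, an HRE core was present in 26.9% (16.8 to 39.1), AP-1 in 13.4% (6.33 to 23.97) and TEAD in 55.2% (42.6 to 67.4). Over the whole site, 96.2% of the first and 77.6% of the second set held a core. The sites without HIF-1β also ranked lower, at a median mean rank of 369 against 209. Both sets recurred as HIF-2α sites, in a median of 8 of 12 other HIF-2α libraries outside HepG2. In WT, however, HIF-2α was called in both replicates at 97.2% of the first set (95% CI 91.95 to 99.4). This share was lower in the second set, at 73.1% (60.9 to 83.2). HIF-1α was called in a median of 4 of 12 other libraries at the first set and 0 of 12 at the second. In the WT libraries, whose HIF-1β lists were longer (6199 and 8279 peaks against 1357 and 1793), HIF-1β was called in both replicates at 100 of the 106 and at 32 of the 67, and in neither replicate at 0 and 21. In HIF-1-only sites the HRE share was alike, at 83.2% of 101 with and 12 of 15 without HIF-1β (80.0%, 95% CI 51.9 to 95.7). Those 15 ranked lower, at a median mean rank of 450.5 against 160. They were called in a median of 1 of 12 other HIF-1α libraries, against 6 for the 101.

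Of the 10 best-ranked HIF-2-only sites, 4 belonged to the set without HIF-1β at 16 h, those at SNAPC1, SERTAD4, CES3 and ROBO2. They had a HIF-2α peak in 12, 12, 11 and 12 of the 12 other HIF-2α libraries. A HIF-1α peak was found in 3, 0, 0 and 0 of 12. HIF-1β had a peak in 4, 3, 3 and 1 of 16 libraries. These include the libraries of 16 h, where it was absent by selection. In WT, HIF-1β was called in both replicates at SNAPC1, SERTAD4 and CES3, and in 1 replicate at ROBO2. None of the 4 sites had an HRE core within 100 bp of the centre, and the SNAPC1 site held none over its whole length. The part of the antibody in these calls was not tested, since no library with the HIF-2α antibody in HIF-2α KO cells was analysed here.

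The nearest protein-coding genes were then set against 16 lists of hypoxia-related and kidney genes, 146 genes in all. Of them, 13 (8.90%) were nearest to a HIF-1-only site, 14 (9.59%) to a HIF-2-only site and 31 (21.2%) to a shared site, and 53 to a site of any class. Among all 19794 protein-coding genes these shares were 0.672%, 0.990% and 0.399%. The nearest gene is a label of position, not a shown target, and the lists were chosen with earlier results of these data known.

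Of 18 genes of glucose uptake and glycolysis, 8 were nearest to a shared site (SLC2A3, GPI, PFKFB3, ALDOA, GAPDH, PGK1, ENO1 and PKM), PFKFB4 to a HIF-1-only site, and SLC2A1 and ENO1 to a HIF-2-only site. A further 4 (HK2, PFKP, PFKL and ENO2) had a site in 3 of the 4 lists. GAPDH scored 1247 and 588 in HIF-1α and 113 and 170 in HIF-2α, and GPI 1046 and 580 against 61.8 and 83.1. At SLC2A1, the main glucose transporter of many cells, the HIF-2-only site lay in an intron 1.80 kb downstream of the TSS (chr1:43406427-43407796) and scored 103.5 and 94.5. Of 6 genes listed under lactate and pyruvate fate, LDHA, PDK1 and the lactate exporter SLC16A3 were shared. MXI1 was HIF-1-only, but the paper names it as a MYC antagonist, not as a gene of lactate or pyruvate. Of 7 genes of glycogen metabolism, GBE1 and PGM1 were HIF-1-only and PPP1R3C shared.

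Of the 7 histone lysine demethylases that were listed, KDM4C and KDM5C were HIF-1-only, KDM3A and KDM4B shared, and KDM6B and KDM2B in 3 of the 4 lists. The list does not hold the whole family, and KDM2A and KDM7A, not listed, were also nearest to a HIF-1-only site. Of 5 mitophagy and mTOR genes, BNIP3L was shared, BNIP3 and FAM162A were in 3 lists, and DDIT4 had sites of both kinds. Its promoter (chr10:74033145-74033921) was HIF-1-only with scores of 196 and 140, while the site 13.1 kb upstream (chr10:74019826-74021323) was shared, with 411 and 262 in HIF-1α and 393 and 320 in HIF-2α. DDIT4 was the only gene nearest to both a HIF-1-only and a shared site. Of 7 collagen-modifying genes, P4HA2 and P4HB were HIF-1-only and P4HA1, PLOD2 and LOXL2 shared.

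Of 9 growth factors and receptors, TGFA (66.0 and 136, 42.9 kb upstream) and IGFBP3 (73.0 and 149, 56.6 kb upstream) were HIF-2-only and none was HIF-1-only or shared. Of 15 integrin, laminin and matrix genes, COL4A1 (60.3 and 230) and COL4A2 (214 and 211) were HIF-2-only, ITGB1 was shared, and ITGA5 and COL5A1 were in 3 lists. Of 7 lipid genes, PLIN2, which coats lipid droplets (63.5 and 242), and LPIN1 (191 and 221) were HIF-2-only, VLDLR was HIF-1-only and HILPDA in 3 lists. Among vascular factors, ANGPTL4 was HIF-2-only (59.0 and 73.3) and ADM was shared. Of 12 cell cycle and transcription factors, KLF6 (69.3 and 223) was among 2 HIF-2-only genes, and BHLHE40 and JUN were shared.

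The remaining lists gave fewer sites. Of 10 oxygen-sensing genes, EGLN3 was shared and EGLN1 in 3 lists. CA9 and SLC16A3 were the shared genes among 5 of pH regulation, TFRC the shared gene among 6 of erythropoietin and iron, and none of 7 kidney lineage factors was nearest to a site of any class. Of 15 other hypoxia signature genes, RLF, SAP30 and ERO1A were HIF-1-only, ZNF395 shared, and NDRG1, ARRDC3 and STC2 had both a shared and a HIF-2-only site. In all, 8 genes were nearest to sites of these 2 classes, the others being AZIN1, CMIP, ENO1, SLC7A5 and SNAPC1. At ENO1 the second site lay 24.98 kb upstream (chr1:8963820-8964628, 50.7 and 86.8). ARRDC3 had its HIF-2-only site (chr5:90577194-90577896, 63.6 and 150) right beside the shared one. A HIF-2-only site lay within 50 kb of a shared site in 7 cases (3.38%) and a HIF-1-only site in 1 (0.746%).

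Within the shared class, the isoforms ranked sites differently by distance to a TSS. Since each list has its own length, a rank was taken as a percentage of its list, with low values for high scores. For the 32 shared sites within 1 kb of a TSS the median was 3.97% in HIF-1α and 13.3% in HIF-2α, and 27 of them ranked better in HIF-1α. For the 35 over 10 kb away the medians were 13.7% and 4.81%, and 26 ranked better in HIF-2α. Both HIF-1α ranks were better than both HIF-2α ranks at 20 of the 32 proximal sites, and the reverse held at 2. Among the 35 distal sites these counts were 4 and 22. The 14 sites between 1 and 10 kb stood between, with medians of 10.5% and 12.97%.

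The extremes of the shared class were mostly promoters on the HIF-1α side and mostly distal sites on the HIF-2α side. PGK1, a glycolytic kinase (chrX:77359122-77360050), stood at 3.69% in HIF-1α and 63.9% in HIF-2α, and CA9, a carbonic anhydrase and marker of hypoxia, at 12.5% and 52.4%. The PIEZO2 site, 70.9 kb upstream, stood at 67.9% and 13.9%, and that of SLC45A1, 106 kb upstream, at 53.9% and 0.959%. ADM, the vasodilator adrenomedullin (chr11:10329253-10330052, 2.73 kb from the TSS), stood at 50.3% and 4.81%, with scores of 213 and 50.8 in HIF-1α and 200 and 267 in HIF-2α. Some sites went the other way. The distal TEX44 site (21.2 kb) stood at 19.2% in HIF-1α and 52.8% in HIF-2α, and the NPPB promoter (0.285 kb) at 20.2% and 1.60%.

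**Figure D4:**
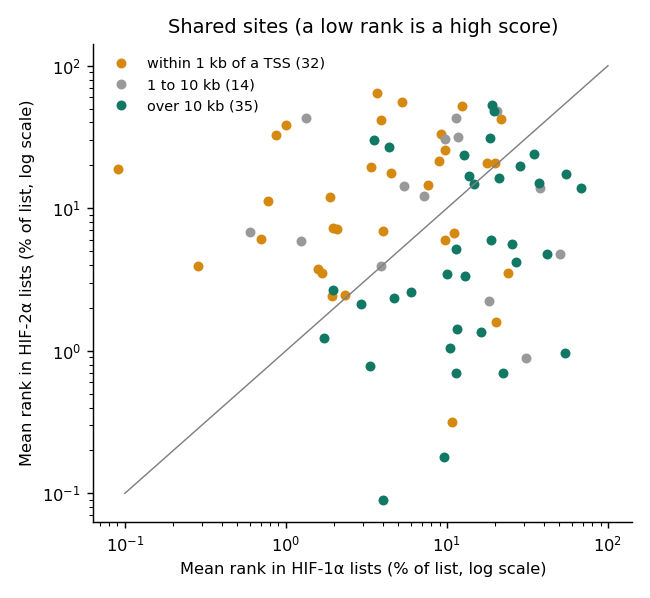
Mean rank of each of the 81 shared sites in the HIF-1α lists (x) and the HIF-2α lists (y), as a percentage of the list (log axes, a low rank is a high score), coloured by distance to the nearest TSS. Most of the 32 sites within 1 kb of a TSS lie above the diagonal (better ranked in HIF-1α, 27 sites) and most of the 35 over 10 kb away lie below it (26 sites).

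The classes were then looked up in libraries that had not defined them, to ask whether the calls of 16 h recur. HIF-1-only sites had a HIF-1α peak in 59.0% and 44.03% of cases at 6 h (replicates 1 and 2), 45.5% and 11.9% at 48 h, 27.6% and 12.7% in 3% oxygen and 59.0% and 51.5% in WT. They had a HIF-2α peak in 1.49% and 2.99%, 5.97% and 0%, 0.746% and 0.746%, and 28.4% and 26.1%. HIF-1α was higher than HIF-2α in both libraries of each of the 4 conditions, with means of 38.9% and 8.30% and a difference of 30.6 points (two-sided exact permutation test, p 0.00154, adjusted p 0.00424).

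HIF-2-only sites gave the mirror image. They had a HIF-2α peak in 54.6% and 67.6% of cases at 6 h, 64.3% and 9.66% at 48 h, 30.4% and 57.0% in 3% oxygen and 89.9% and 93.2% in WT. HIF-1α peaks were found at 2.42% and 0.966%, 2.42% and 0%, 0.483% and 0%, and 54.6% and 47.8%. The difference averaged −44.7 points (13.6% against 58.3%, exact permutation p 0.00154, adjusted p 0.00424). HIF-2α replicate 2 of 48 h had 237 peaks, fewer than any other HKC-8 library, and without 48 h, an alternative added after the data were seen, the difference was −47.7 points. The class preference, which is the share of HIF-1-only sites called minus that of HIF-2-only sites, averaged 25.3 for HIF-1α and −50.0 for HIF-2α libraries, and the difference of 75.3 points had the same sign in 4 of 4 conditions (exact permutation p 0.00154, adjusted p 0.00424). When the classes were defined from replicate 2 or replicate 1 of 16 h alone, it was 28.1 or 17.3 points with the same p of 0.00154. The difference at HIF-1-only sites was then 6.25 or 5.42 points (exact permutation p 0.00309 in both) and that at HIF-2-only sites −21.8 or −11.9 points (exact permutation p 0.00154 in both), and the knockout difference given below was 28.9 or 17.9 points.

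Shared sites were called by either isoform. Their share with a peak averaged 63.3% in the HIF-1α and 67.4% in the HIF-2α libraries, a difference of −4.17 points (exact permutation p 0.653, adjusted p 0.718) that ranged from −12.3 in 3% oxygen to 6.79 at 48 h.

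**Figure D5:**
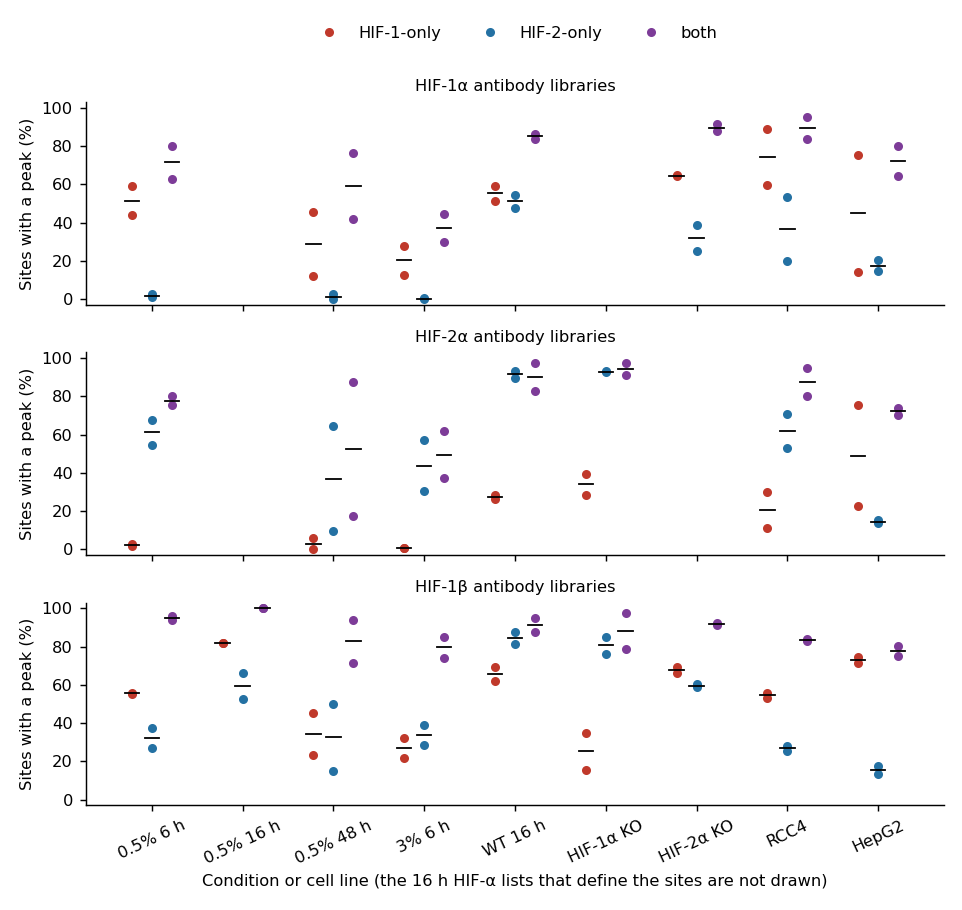
Share of the 134 HIF-1-only, 207 HIF-2-only and 81 shared sites (%) with a peak in each library, in panels for the HIF-1α, HIF-2α and HIF-1β antibodies. Points are libraries and bars their mean; WT 16 h, HIF-1α KO and HIF-2α KO are the knockout experiment. HIF-1α libraries called under 3% of HIF-2-only sites at 6 h, 48 h and in 3% oxygen but 54.6% and 47.8% in WT.

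The WT libraries, made under the same oxygen and time, separated the classes less for HIF-1α. HIF-1α was called there at similar shares of both classes, at 79 and 69 sites of the HIF-1-only class and 113 and 99 of the HIF-2-only class, with a class preference of 4.37 and 3.67 points. These HIF-2-only sites stood lower in the HIF-1α lists, at a median rank of 28.8% and 28.5% of the list against 15.1% and 18.05% for the HIF-1-only sites called. The WT lists were unequal in length, with 1913 and 1535 peaks for HIF-1α and 4537 and 6749 for HIF-2α. With lists of equal length within condition, the class preference over the 4 conditions differed by 70.6 points (exact permutation p 0.00154). By the same rule applied to the 4 WT lists at full length, 66 of the 207 HIF-2-only sites were again HIF-2-only (31.9%, 95% CI 25.6 to 38.7). Another 95 were shared (45.9%). Of the 134 HIF-1-only sites, 27 were again HIF-1-only (20.1%, 13.7 to 27.9), 29 were shared (21.6%) and 49 had no peak in any of the 4 lists (36.6%). No site passed to the opposite class, with 0 of 134 HIF-1-only sites (95% CI 0 to 2.72%) and 0 of 207 HIF-2-only sites (0 to 1.77%). The share of all merged sites in each WT class was not taken, so these counts have no background. The part of list length in the WT classes was not tested.

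In the knockout cells HIF-1β was called at fewer HIF-1-only sites without HIF-1α, and at fewer HIF-2-only sites without HIF-2α, than in the opposite knockout. HIF-1-only sites had a HIF-1β peak in 15.7% and 35.1% of cases in HIF-1α KO and in 69.4% and 66.4% in HIF-2α KO, beside 61.9% and 69.4% in WT. HIF-2-only sites had one in 76.3% and 85.0% in HIF-1α KO and 60.4% and 58.9% in HIF-2α KO, beside 81.2% and 87.4% in WT. The class preference of HIF-1β was 8.25 points in HIF-2α KO and −55.3 in HIF-1α KO, a difference of 63.6 with no overlap between the libraries (exact permutation p 0.33, two-sided, the smallest possible, adjusted p 0.407). The HIF-1β lists differed in length, with 3387 and 5786 peaks in HIF-1α KO and 2550 and 2085 in HIF-2α KO, and the part of length was not tested. HIF-1α was still called at 38.6% and 25.1% of HIF-2-only sites in HIF-2α KO cells, and HIF-2α at 28.4% and 39.6% of HIF-1-only sites in HIF-1α KO cells.

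In RCC4, the HKC-8 classes kept their direction. HIF-1-only sites were called in 88.8% and 59.7% by HIF-1α, and in 29.9% and 11.2% by HIF-2α, and HIF-2-only sites in 53.1% and 19.8% by HIF-1α and 70.5% and 53.1% by HIF-2α. The class preference differed by 79.1 points (exact permutation p 0.33, the smallest possible). In HepG2 as labelled, the class preference was −0.314 and 55.1 points in HIF-1α replicates 1 and 2 and 61.8 and 6.93 points in HIF-2α replicates 1 and 2. The means differed by −7.00 points, a value that rests on the doubtful labels of replicate 1, and over both lines by 36.05 points (exact permutation p 0.278, two-sided, adjusted p 0.407). HIF-2-only sites were rare in HepG2 whatever the label, with a peak in 13.5% to 20.3% of cases in the 4 HIF-α libraries and 17.4% and 13.5% in the HIF-1β libraries. HIF-1-only sites had a HIF-1β peak there in 74.6% and 71.6%.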

How the data were processed

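Per the labels and the study's methods, the authors trimmed reads with Trim Galore 0.3.3, aligned them to GRCh37 with BWA 0.7.5a-r405, marked duplicates with Picard 1.106 and called peaks with MACS against input, in each library separately. The deposited files are these peak lists, whose value per peak is a MACS score (a scaled −log10 of the p-value, at least 50). They hold no depth. For its own sites the study also called peaks with T-PIC. It filtered the peaks found by both callers against random background regions. T-PIC and this filter were not applied here.

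Here, peaks on chromosomes 1 to 22, X and Y were merged into sites (12 of 4513 peaks lay elsewhere), and site centres were compared with the TSS of 89204 protein-coding transcripts of GENCODE 44 on GRCh37. Motifs were searched on both strands within 100 bp of the centre. Score ranked peaks within a list only.

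Values per library were compared by exact permutation tests, two-sided, within condition. The 11 tests were adjusted together (Benjamini-Hochberg). Replicates are the duplicates of the labels, not known to be separate cultures, so p-values measure the spread between libraries. The code was tested on simulated data.

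Named are the 10 sites of each class with the best mean rank and the genes of the lists. The 16 gene lists are described in the report. The members, lists and motifs were chosen with earlier results of these data known; other sites were named after their values were seen. Sequences shown are of the first 4 sites per class that hold an HRE core, chromosome 8 left out. Alternatives were a 50% overlap rule, a score of at least 100, lists of equal length, another TSS set or distance, whole peaks, other centres and left-out replicates. No pair of the 4 lists was identical. Same-numbered HIF-1α and HIF-2α lists overlapped by 14.3% and 11.8% of the shorter list and crossed ones by 15.4% and 12.5%, so the numbers were not taken to pair the libraries. Python 3.11.15, pandas 2.3.3, SciPy 1.17.1 and pyfaidx 0.9.0.4 were used.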

Additional observations from a re-analysis of the deposited data

How the results depend on the processing

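Among 114 recomputed values, 97 kept their direction and their side of the threshold of 0.05, or stayed within the interval or 1.5 times of the count reported. For the peak shares at 16 h and HIF-1β in knockout cells no p below 0.33 was possible, so that staying on 1 side of the threshold says nothing about them. The number of sites depends on the rule. With peaks of a score of at least 100 there were 63 HIF-1-only, 85 HIF-2-only and 30 shared sites. From 1 replicate of each isoform there were 838 to 1142 HIF-1-only, 940 to 1021 HIF-2-only and 110 to 168 shared sites, since 1 list is then enough. With lists of equal length there were 136, 191 and 81. With 1 replicate of the other conditions left out, the difference in class preference was 67.3 to 83.4 points, that at HIF-1-only sites 22.6 to 38.6 and that at HIF-2-only sites −44.8 to −44.7. At a score of at least 100, the isoform differences in peaks at 16 h were larger, 45.6 points for TSS within 1 kb, −16.2 for AP-1 and 12.7 for the HRE core. For the left-out replicates each p was 0.125, the smallest that the remaining 16 arrangements allow in an exact permutation test. HepG2 taken alone, a split made after the data were seen, gave a class preference of −7.00 points, with the labels of replicate 1 in doubt. The difference in HRE share of peaks at 16 h turned to −4.38 points with whole peaks and ranged from −5.58 to 8.86 when a replicate was left out.

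With the replicate number as a block (labels permuted within condition and number), the difference in class preference of 75.3 points had an exact permutation p of 0.00781, as had those of 30.6 points at HIF-1-only and −44.7 points at HIF-2-only sites, the smallest that pairing by number allows, and no call changed. Without the WT libraries the class preference differed by 77.7 points (exact permutation p 0.00926). Peak lists give no depth, so sites that were not called cannot be told from sites just under the caller's limit. HepG2 labels are in doubt, and each group has 2 libraries.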

Other observations

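The HIF-1-only sites that were missed in WT were mostly GC-rich promoters. At the 52 HIF-1-only sites with no HIF-1α peak in either WT replicate, median GC content around the centre was 73.6% (quartiles 70.1% and 76.2%), against 61.2% (53.2% and 68.5%) at the 66 with a peak in both, and 45 of the 52 lay within 1 kb of a TSS (86.5%, 95% CI 74.2 to 94.4) against 41 of 66 (62.1%, 49.3 to 73.8). Median GC content was also higher at the 11 shared sites missed (76.6%) than at the 68 called in both (62.7%), but 5 of the 11 lay within 1 kb of a TSS (45.5%, 16.7 to 76.6) and their median mean rank was 120 against 134. HIF-2-only sites had a median of 53.7% both at the 90 without and at the 95 with a HIF-1α peak in both WT replicates. The missed HIF-1-only sites also ranked lower at 16 h, with a median mean rank of 267 against 152. Whether base composition or rank bears on the calls was not tested.

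Few sites recurred everywhere. Outside HepG2 and the lists that defined the sites, 6 HIF-1-only sites had a peak in all 12 HIF-1α libraries and 6 HIF-2-only sites in all 12 HIF-2α libraries, while 4 HIF-1-only sites and 1 HIF-2-only site had none. No HIF-2α peak in 12 libraries was found at 61 HIF-1-only sites (45.5%), and no HIF-1α peak in 12 at 62 HIF-2-only sites (30.0%). The same shares were not taken over all merged sites, so these counts have no background and do not measure isoform specificity. At shared sites, HIF-1β was called in a median of 15 of 16 libraries, against 8 at HIF-1-only and 9 at HIF-2-only sites.

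In WT, 3 shared sites were HIF-2-only (EDN2, OSMR and NTMT1) and none was HIF-1-only, and 2 had no HIF-α peak there (SIAH2 and KCTD11). These 5 are named after their values were seen.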
